A study of Mus musculus with 9 samples.

Results

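The genes described here encode Wnt ligands, their receptors, and the proteins that raise or lower Wnt signalling outside and inside the cell. The list held 49 genes, chosen by name with earlier results of these data known. Of them, 48 had a probe set annotated to their symbol alone. Tcf7 was not analysed here. Each gene was represented by the probe set with the highest mean over 9 arrays, as were the 18193 genes of the array with such a probe set. The 48 genes comprised 13 ligands, 14 receptors, 3 R-spondins, 7 secreted antagonists, 8 intracellular modulators and 3 of the 4 listed TCF/LEF transcription factors.

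Transcripts were measured in cells sorted by GFP fluorescence from mouse forelimb buds at E10.5, with 3 Affymetrix arrays per group in 3 groups. PAX3-FKHR GFP+ cells came from Pax3PAX3-FKHR/GFP embryos, in which one Pax3 allele encodes the human fusion of the PAX3 DNA binding domains with the FKHR (FOXO1) activation domain and the other encodes GFP. Control GFP+ cells came from Pax3GFP/+ embryos, which keep a wild type Pax3 allele, so the first 2 groups differed both in the fusion protein and in mouse Pax3. GFP- cells were the forelimb bud cells without GFP. The labels give no genotype for them. The study compares them as cells of Pax3GFP/+ embryos, although its list of the groups hybridised names Pax3+/+ in their place. The fusion allele was crossed to PGK-Cre females, a line in which Cre is active in all tissues, on a mixed C57BL6 and DBA2 background, and the fusion was therefore expressed wherever and whenever the Pax3 locus was active. Forelimb buds of many embryos of a genotype were pooled before sorting, and the replicates, n = 3 for each mean, were described as biological triplicates of such pools.

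In canonical Wnt signalling, a Wnt ligand binds a Frizzled receptor and an Lrp5 or Lrp6 coreceptor, which stops the Axin and Apc complex from marking β-catenin (Ctnnb1) for destruction, and β-catenin then acts with TCF/LEF factors on transcription. R-spondins bind Lgr receptors and make cells more sensitive to Wnts. Dkk proteins act on the coreceptors, whereas Sfrp proteins, Frzb and Wif1 bind the ligands themselves. Other Wnts, Wnt5a and Wnt11 among them, signal mainly without β-catenin and orient cell movement and polarity. In the limb bud, Wnts of the ectoderm and mesenchyme pattern outgrowth, and Wnts of the neural tube and surface ectoderm promote myogenesis in the somite, from which Pax3-positive muscle progenitors migrate into the limb.

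Levels are given as RMA log2 values, on which a difference of 1 is a doubling of signal. All 9 arrays were fitted together with limma over 45037 probe sets. Calls required an adjusted p (Benjamini-Hochberg) under 0.05 and a log2 fold change of 0.5 or more in either direction. Mouse Pax3, the replaced gene, was at 7.15, 6.83 and 7.33 in PAX3-FKHR GFP+ cells, 9.92, 8.94 and 10.22 in control GFP+ cells and 5.17, 5.14 and 4.77 in GFP- cells, and it fell by 2.59 with PAX3-FKHR (adjusted p = 0.00363). Which parts of the fusion transcript these probes read was not examined. The sorted populations were checked against marker genes that are not among the 48. All 9 measured markers of myogenic progenitors, Pax3 among them, were higher in control GFP+ than in GFP- cells, and their mean was 8.72 to 9.0 on PAX3-FKHR GFP+ arrays, 8.50 to 8.84 on control GFP+ arrays and 4.83 to 5.17 on GFP- arrays. The cells were sorted by GFP from the Pax3 locus, so the result for Pax3 follows from the sort. The fall of Pax3 with PAX3-FKHR also enters these means. The 20 markers of limb mesenchyme averaged 6.48 to 6.81, 6.58 to 6.73 and 7.82 to 8.10 in the same order, and 13 of them were lower in control GFP+ cells than GFP- cells. Within groups the arrays correlated with r between 0.9783 and 0.9933. Control GFP+ replicate 3 stood apart, with the 2 lowest values of its group (0.9783 and 0.9846). For the 48 genes, values without it are given where its removal changed a call or where it stood out for a gene.

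Between PAX3-FKHR GFP+ and control GFP+ cells 4 of the 48 genes passed the test, and their promoters are shown first, because these genes carry the comparison. RefSeq promoter windows of 300 bases, 250 before and 50 after a transcription start on GRCm38.p6, were at hand for 31 of the 48 genes. They included Frzb (chr2:80447347-80447646, minus strand), Nkd2 (chr13:73847582-73847881, minus strand) and Ankrd6, which has 3 windows. The windows of Ankrd6 shown are those of the outermost of these 3 starts (chr4:32950777-32951076, minus strand) and of the next one (chr4:32923456-32923755, minus strand). Siah2 is only named. Capitals mark matches to CTTTGA or CTTTGT, the core letters of TCF/LEF binding sites, or to GTCACG, a core bound by paired domains, each searched on both strands, with no overlap between matches.
Frzb: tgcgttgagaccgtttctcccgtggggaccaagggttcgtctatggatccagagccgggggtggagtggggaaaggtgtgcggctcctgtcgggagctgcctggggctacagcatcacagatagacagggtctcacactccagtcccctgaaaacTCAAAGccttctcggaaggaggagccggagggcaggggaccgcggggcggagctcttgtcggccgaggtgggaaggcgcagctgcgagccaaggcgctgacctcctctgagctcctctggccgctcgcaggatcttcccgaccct
Nkd2: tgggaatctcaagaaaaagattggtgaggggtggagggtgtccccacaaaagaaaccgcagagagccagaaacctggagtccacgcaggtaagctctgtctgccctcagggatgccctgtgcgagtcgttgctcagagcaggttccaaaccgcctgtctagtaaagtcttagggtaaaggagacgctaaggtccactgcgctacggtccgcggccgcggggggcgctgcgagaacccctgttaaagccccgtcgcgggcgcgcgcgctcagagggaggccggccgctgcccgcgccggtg
Ankrd6, window 1: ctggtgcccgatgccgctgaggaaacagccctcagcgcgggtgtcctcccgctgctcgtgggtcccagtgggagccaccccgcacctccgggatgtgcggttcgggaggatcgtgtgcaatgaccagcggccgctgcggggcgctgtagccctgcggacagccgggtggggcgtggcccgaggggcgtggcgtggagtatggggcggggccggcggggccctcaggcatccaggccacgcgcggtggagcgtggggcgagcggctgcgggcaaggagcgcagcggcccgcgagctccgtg
Ankrd6, window 2: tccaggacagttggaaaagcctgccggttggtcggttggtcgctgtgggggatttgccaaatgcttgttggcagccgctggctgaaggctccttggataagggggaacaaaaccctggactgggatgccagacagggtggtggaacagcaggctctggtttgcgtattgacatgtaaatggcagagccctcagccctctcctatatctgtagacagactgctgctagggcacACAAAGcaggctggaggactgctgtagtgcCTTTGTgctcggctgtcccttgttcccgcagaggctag
The Frzb window held 1 match to CTTTGA, on the minus strand and starting 95 bases before the transcription start. Ankrd6 window 2 held 2 matches to CTTTGT, on the minus strand starting 18 bases before the start and on the plus strand at transcribed base 13. The Nkd2 window, Ankrd6 window 1 and the third Ankrd6 window held none of the 3 motifs. Taking the first listed window of each gene, CTTTGA was present in 4 of 31 windows of the Wnt genes (12.9%) and in 16.2% of 27025 windows of all genes. The shares were 19.4% and 18.7% for CTTTGT, and 9.68% and 8.48% for GTCACG. These matches describe the letters of the windows and are not evidence of binding.

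The first comparison asked which Wnt genes change when PAX3-FKHR, a strong activator with the DNA binding specificity of Pax3, replaces Pax3 in the myogenic progenitors of the limb. Siah2 and Ankrd6 were higher and Frzb and Nkd2 lower in PAX3-FKHR GFP+ than in control GFP+ cells, by 2.94-fold to 4.38-fold, and the other 44 genes were not called. Of these 4 genes, 3 act inside the cell and 1 is secreted, and no ligand, receptor, R-spondin or TCF/LEF factor was called. The calls were 2 higher (4.17%) and 2 lower (4.17%) of 48, against 0.61% higher and 0.203% lower of all 18193 genes. At the shares of all genes, classes as small as these would hold few calls or none. The median log2 fold change was -0.05 over the 48 genes and -0.03 over all genes, and 14 of the 48 (29.2%) had an unadjusted p under 0.05, against 8.37% of all genes. All 4 called genes are among the Wnt genes that the study itself lists as changed in its screen, in forelimb buds, somites or both. That list also gives Wnt16, Dkk1, Dkk2, Wif1, TCF7/2 (read here as Tcf7l2), Sulf1, Tcf15 and Csrp1 as raised. None of these was called here. Dkk2 (-0.405) and Wif1 (-0.255) were below 0, and the others above 0. The study used a local pooled error test and also somites, unlike the main fit here. The 48 genes were listed with such results known, so these shares are not an independent test. In sorted pools, fewer cells of a type and less RNA per cell cannot be told apart.

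**Figure D1:**
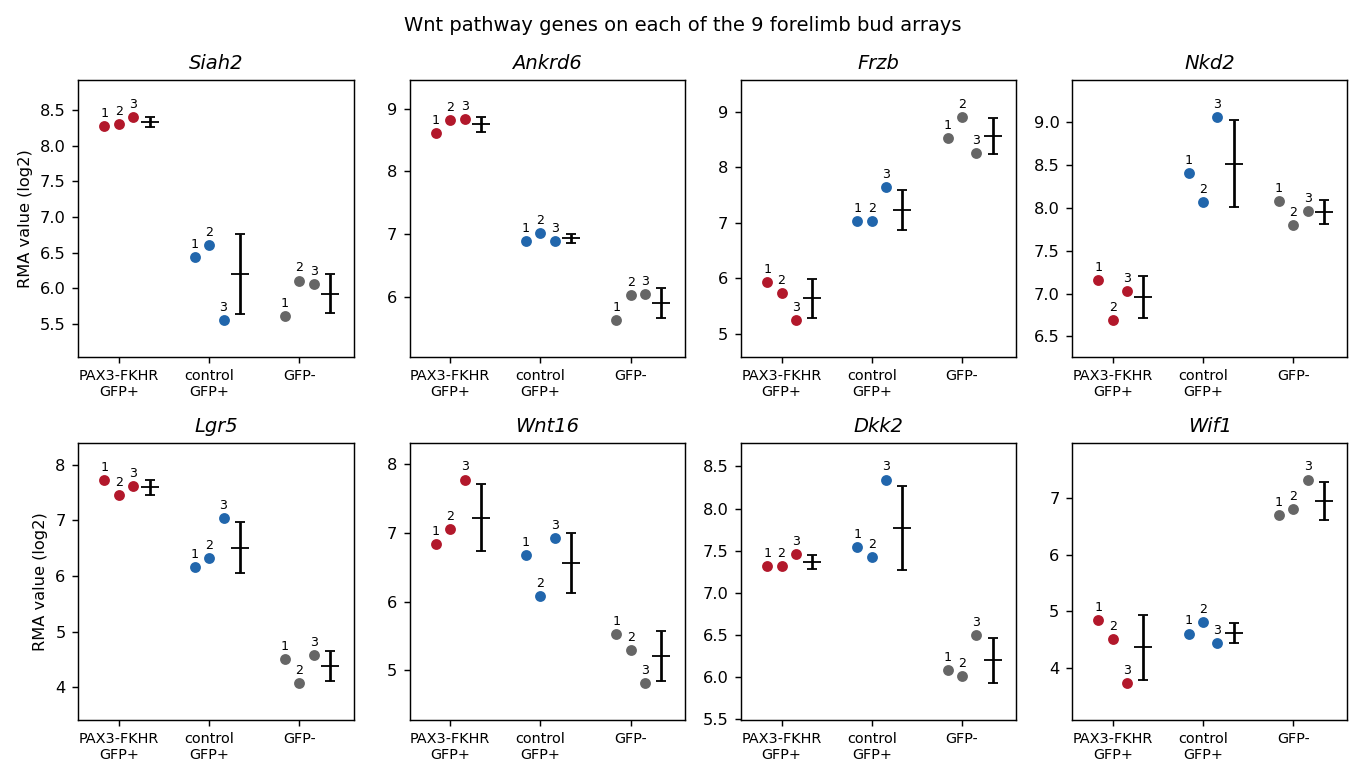
RMA values (log2, vertical axis, which does not start at 0) of 8 Wnt genes on each array, by group (horizontal axis). Points are single arrays numbered by replicate, and bars give the mean and SD of 3 arrays. All 3 PAX3-FKHR GFP+ points of Siah2 and Ankrd6 lie above, and all 3 of Frzb and Nkd2 below, every control GFP+ point.

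Siah2, an E3 ubiquitin ligase of the RING family (probe set 1448170_at; chr3:58674949-58692439), was at 8.28, 8.31 and 8.41 in PAX3-FKHR GFP+ cells, 6.44, 6.61 and 5.55 in control GFP+ cells and 5.61, 6.11 and 6.06 in GFP- cells. The PAX3-FKHR arrays lay above all others, and the control GFP+ and GFP- arrays overlapped. The difference between PAX3-FKHR GFP+ and control GFP+ cells was 2.13 (standard error 0.26, 4.38-fold, adjusted p = 0.00509). Control GFP+ replicate 3 was the lowest array for this gene, and without it the difference was 1.81 (adjusted p = 0.00276). A second probe set of Siah2 gave 0.91 (adjusted p = 0.0941) and was not called.

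Ankrd6, also known as Diversin, binds Dishevelled and casein kinase I and in vertebrates lowers β-catenin signalling and acts in planar cell polarity (1437217_at; chr4:32804027-32950885). Its values were 8.60, 8.81 and 8.83 in PAX3-FKHR GFP+ cells, 6.89, 7.02 and 6.89 in control GFP+ cells and 5.62, 6.03 and 6.05 in GFP- cells. The 3 groups did not overlap, with PAX3-FKHR GFP+ cells highest and GFP- cells lowest. The difference between PAX3-FKHR GFP+ and control GFP+ cells was 1.81 (standard error 0.15, 3.52-fold, adjusted p = 6.39e-04), and it was 1.79 (adjusted p = 0.00254) without control GFP+ replicate 3. A further probe set gave 1.81 (adjusted p = 0.00982), so that 2 of 3 Ankrd6 probe sets were called higher. The third gave 0.26 (adjusted p = 0.577).

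Frzb, or Sfrp3, a secreted protein that binds Wnts through a Frizzled-like domain (1416658_at; chr2:80411970-80447396; the promoter window with the single TCF/LEF match above), was at 5.92, 5.74 and 5.24 in PAX3-FKHR GFP+ cells, 7.02, 7.02 and 7.63 in control GFP+ cells and 8.52, 8.91 and 8.26 in GFP- cells. The order was the reverse of that of Ankrd6, with no overlap between groups. Frzb fell by 1.59 in PAX3-FKHR GFP+ relative to control GFP+ cells (standard error 0.24, 3.01-fold, adjusted p = 0.0189). The call was lost when PAX3-FKHR GFP+ replicate 2, PAX3-FKHR GFP+ replicate 3, control GFP+ replicate 1 or control GFP+ replicate 3 was left out, with log2 fold changes of -1.69 to -1.39 and adjusted p of 0.0513 to 0.0833. On the other Frzb probe set, the log2 fold change was -0.27 (adjusted p = 0.828).

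Nkd2, a Naked cuticle homologue that binds Dishevelled and acts as a feedback inhibitor of Wnt signalling (1419466_at; chr13:73818534-73847631), was at 7.16, 6.69 and 7.03 in PAX3-FKHR GFP+ cells, 8.41, 8.07 and 9.07 in control GFP+ cells and 8.09, 7.81 and 7.96 in GFP- cells. The PAX3-FKHR arrays lay below those of both other groups. Nkd2 fell by 1.55 in PAX3-FKHR GFP+ relative to control GFP+ cells (standard error 0.24, 2.94-fold, adjusted p = 0.0190). The call was lost without any 1 of the PAX3-FKHR GFP+ arrays or without control GFP+ replicate 1, with log2 fold changes of -1.66 to -1.42 and adjusted p of 0.0559 to 0.106. Without control GFP+ replicate 3, the highest array for this gene, it was -1.28 (adjusted p = 0.0224). The other 3 Nkd2 probe sets gave -1.30, -1.14 and -0.65 and were not called. Its paralogue Nkd1 was at -0.42 (95% interval -0.88 to 0.04, adjusted p = 0.739).

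**Figure D2:**
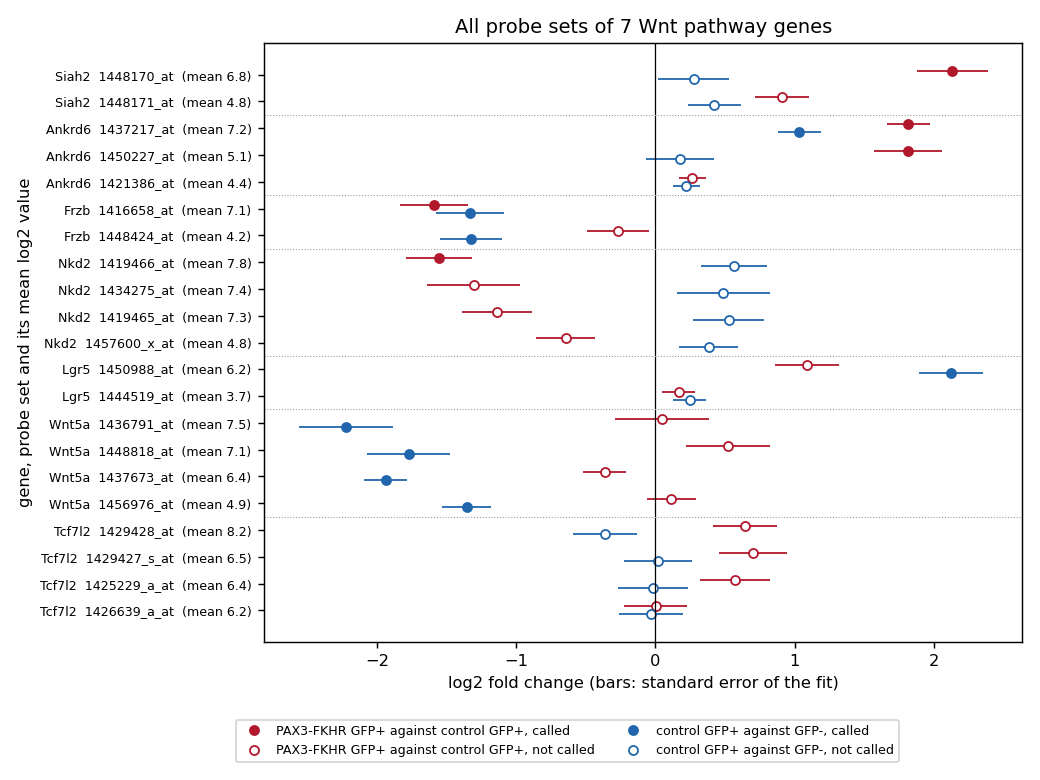
Log2 fold changes (horizontal axis) of every probe set of 7 Wnt genes (rows, with the mean RMA value over 9 arrays). Bars are standard errors of the fit, and filled points passed the test. Ankrd6 was called on 2 of 3 probe sets with PAX3-FKHR, Siah2 and Frzb each on 1 of 2 and Nkd2 on 1 of 4, while Wnt5a was called lower in control GFP+ cells than GFP- cells on 4 of 4.

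The remaining intracellular modulators were the scaffold proteins Axin1, Axin2 and Apc and β-catenin itself. Axin2, which is both a component of the destruction complex and a widely used readout of β-catenin signalling, was at 7.98, 8.41 and 8.21 in PAX3-FKHR GFP+ cells and 8.77, 8.82 and 9.04 in control GFP+ cells. Its groups did not overlap, but the difference of -0.68 (95% interval -1.20 to -0.15) was not called (adjusted p = 0.521). Ctnnb1 differed by 0.14 (95% interval -0.10 to 0.39), Apc by 0.04 (-0.42 to 0.49) and Axin1 by -0.12 (-0.43 to 0.19). For these 3 genes the intervals leave out a doubling or halving of the signal in either direction.

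Among the 7 secreted antagonists, only Frzb was called with PAX3-FKHR. Dkk1, an inhibitor of the Lrp coreceptors, was at 5.28, 5.18 and 5.02 in PAX3-FKHR GFP+ cells and 4.68, 4.94 and 5.09 in control GFP+ cells, a difference of 0.26 (adjusted p = 0.762). Dkk2 was at 7.32, 7.32 and 7.46 against 7.54, 7.43 and 8.35 in control GFP+ cells, a difference of -0.41 (adjusted p = 0.775), most of it from control GFP+ replicate 3, without which it was -0.12. Sfrp1 was at 8.82, 8.62 and 8.46 against 9.08, 9.05 and 8.54 (log2 fold change -0.26, adjusted p = 0.812). The arrays of the 2 groups overlapped for all 3 genes. Wif1, which binds Wnts through a domain of its own, was at 4.84, 4.51 and 3.74 against 4.61, 4.81 and 4.44 in control GFP+ cells (log2 fold change -0.25, adjusted p = 0.859). Its sign turned without PAX3-FKHR GFP+ replicate 3. All Wif1 values of both groups, and those of Dkk1 in control GFP+ cells, were below 5.11, the median of all values. Sfrp2, of the same family as Frzb, was at 6.92 to 6.99 in PAX3-FKHR GFP+ cells and 7.54 to 7.55 in control GFP+ cells, without overlap, and its difference of -0.60 was not called (adjusted p = 0.384).

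None of the 13 ligands was called with PAX3-FKHR, where 0.61% of all genes were higher and 0.203% lower. The ligands had log2 fold changes from -1.04 to 0.66 with a median of -0.04. Wnt16, a ligand best known from developing joints and bone, was at 6.84, 7.05 and 7.77 in PAX3-FKHR GFP+ cells, 6.67, 6.07 and 6.93 in control GFP+ cells and 5.53, 5.30 and 4.82 in GFP- cells. The first 2 groups overlapped, and the difference between them was 0.66 (95% interval 0.01 to 1.31, adjusted p = 0.690). Wnt5b, singled out after its values were seen, was at 6.59 to 6.78 in PAX3-FKHR GFP+ cells and 7.31 to 8.43 in control GFP+ cells. It amounted to -1.04 (95% interval -1.68 to -0.41, adjusted p = 0.270), and it was -0.69 (adjusted p = 0.350) without control GFP+ replicate 3, the highest control array. Without that array the difference of Wnt16 was 0.85 (adjusted p = 0.574).

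None of the 14 receptors was called either, against the same shares of all genes, and their log2 fold changes ran from -0.74 to 1.09. Lgr5, a receptor for R-spondins that marks stem cells in several adult epithelia, came closest. It was at 7.72, 7.45 and 7.62 in PAX3-FKHR GFP+ cells and 6.17, 6.33 and 7.04 in control GFP+ cells, with no overlap and a difference of 1.09 (95% interval 0.58 to 1.59, 2.13-fold, adjusted p = 0.0924). Without control GFP+ replicate 3, the highest of the control arrays, Lgr5 was called higher at 1.35 (adjusted p = 0.0135). Over all arrays, its other probe set gave 0.17 (adjusted p = 0.807) and was not called. The Frizzled receptors Fzd1 (-0.74, adjusted p = 0.176) and Fzd2 (-0.70, adjusted p = 0.177) also had groups that did not overlap, with PAX3-FKHR GFP+ cells the lower. The coreceptors Lrp5 and Lrp6 differed by 0.10 (95% interval -0.28 to 0.49) and -0.04 (-0.39 to 0.32).

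The 3 R-spondins differed by -0.38 to 0.17 and were not called. Of the TCF/LEF factors, Tcf7l2 was at 8.45, 8.73 and 8.44 in PAX3-FKHR GFP+ cells and 8.19, 7.88 and 7.63 in control GFP+ cells. The groups did not overlap, and the difference was 0.64 (95% interval 0.13 to 1.15, adjusted p = 0.549). Lef1 was at 7.39 to 7.55 and 7.93 to 7.96, a difference of -0.47 (adjusted p = 0.252), and Tcf7l1 differed by 0.01 (95% interval -0.42 to 0.45).

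Marker genes of other cells were read beside this comparison. None of the 20 mesenchyme markers, 2 of the 17 ectoderm markers (both higher) and 1 of the 13 sclerotome and cartilage markers (lower) were called between PAX3-FKHR GFP+ and control GFP+ cells. The ectoderm markers averaged 5.03 to 5.40 on PAX3-FKHR GFP+ arrays and 4.57 to 5.18 on control GFP+ arrays, and the sclerotome markers 6.26 to 6.45 and 6.35 to 6.44. None of the 15 neural, 9 neural crest and glia, 12 endothelium or 12 blood and macrophage markers was called. Log2 fold changes were below 0 for 10 of the 12 endothelium markers and 5 of the 12 blood and macrophage markers. The part of these cells in the differences above was not tested.

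**Figure D3:**
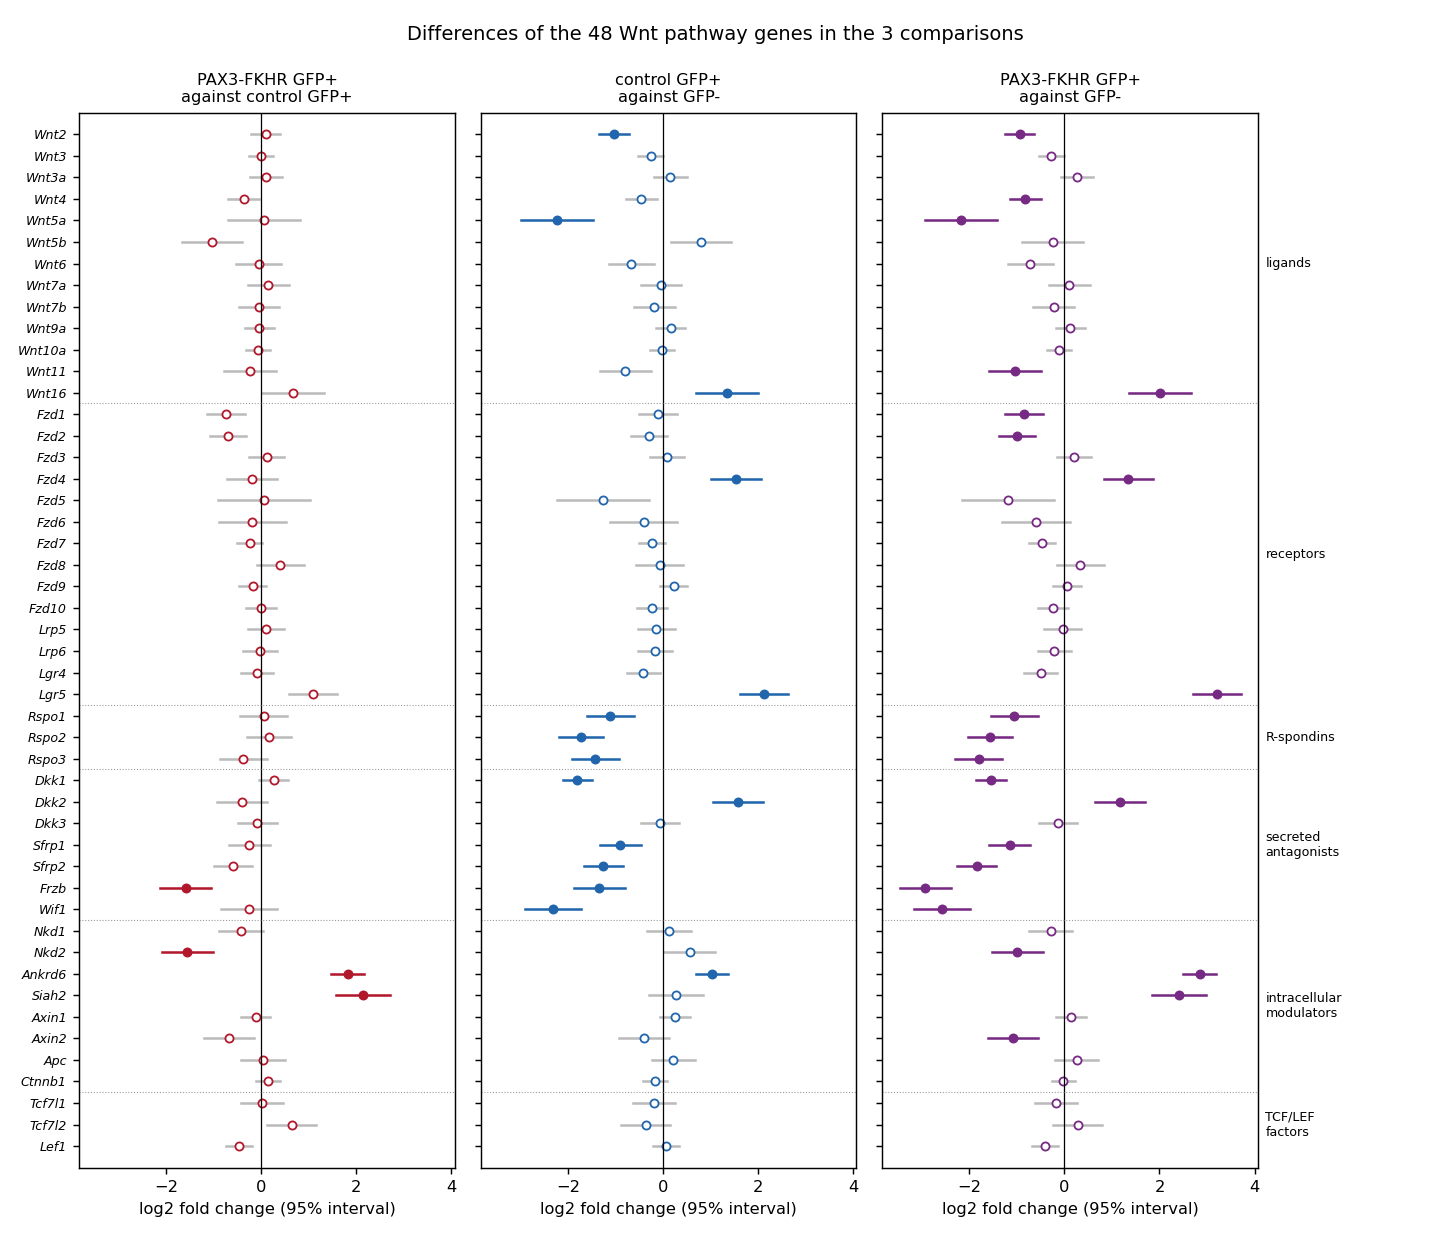
Log2 fold changes with 95% intervals (horizontal axes, shared scale) of the 48 Wnt genes (rows, by class) in the 3 comparisons. Filled points passed the test. With PAX3-FKHR 2 genes were higher and 2 lower than in control GFP+ cells, while 5 were higher and 10 lower in control GFP+ cells than GFP- cells, and 6 were higher and 16 lower in PAX3-FKHR GFP+ than in GFP- cells.

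The second comparison asked which Wnt genes distinguish the Pax3-positive progenitors from the rest of the forelimb bud. In control GFP+ cells 5 of the 48 genes were higher (10.4%) and 10 lower (20.8%) than in GFP- cells, against 2.79% higher and 1.93% lower of all genes. The median log2 fold change was -0.18 over the 48 genes and 0.08 over all genes. The higher genes were Lgr5, Dkk2, Fzd4, Wnt16 and Ankrd6, and the lower ones were all secreted proteins: the ligands Wnt5a and Wnt2, the 3 R-spondins, and the antagonists Wif1, Dkk1, Frzb, Sfrp2 and Sfrp1.

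Of the genes higher in control GFP+ cells, Lgr5 had the largest difference, 2.12 (standard error 0.23, 4.35-fold, adjusted p = 6.35e-04). It was at 6.17, 6.33 and 7.04 in control GFP+ cells and 4.51, 4.08 and 4.58 in GFP- cells, where it was below 5.11, the median of all values. A second Lgr5 probe set gave 0.24 (adjusted p = 0.266) and was not called, and on the mean of both the difference was 1.18, below the 1.57 of Dkk2. Fzd4, a Frizzled receptor that also binds the ligand Norrin, averaged 8.83 ± 0.32 in control GFP+ cells and 7.29 ± 0.46 in GFP- cells (SD; difference 1.54, adjusted p = 0.00435), and 2 of its 3 probe sets were called. Dkk2 was at 7.54, 7.43 and 8.35 in control GFP+ cells and 6.08, 6.01 and 6.50 in GFP- cells, with a difference of 1.57 (adjusted p = 0.00417), whereas its relative Dkk1 lay on the opposite side. The control arrays of these 3 genes were all above the GFP- arrays. Wnt16, with the array values given above, differed by 1.34 (2.54-fold, adjusted p = 0.0232). That call was lost when control GFP+ replicate 1, control GFP+ replicate 3, GFP- replicate 2 or GFP- replicate 3 was left out, with adjusted p of 0.0600 to 0.0833. Ankrd6 differed by 1.03 (adjusted p = 0.00406), on 1 of its 3 probe sets.

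Among the ligands lower in control GFP+ cells, Wnt5a, a Wnt of the distal limb mesenchyme that directs limb elongation, was at 6.99, 7.16 and 5.94 in control GFP+ cells and 8.91, 8.93 and 8.91 in GFP- cells. The GFP- arrays were nearly identical, and the control arrays lay well below them. The difference was -2.22 (standard error 0.34, 4.66-fold, adjusted p = 0.00454), or -1.84 without control GFP+ replicate 3, the lowest array, and all 4 Wnt5a probe sets were called lower, with log2 fold changes of -2.22 to -1.36. Wnt2 averaged 4.26 ± 0.10 in control GFP+ cells and 5.29 ± 0.27 in GFP- cells (SD; difference -1.03, adjusted p = 0.00227). Both Wnt2 and Rspo1 were among 6 genes whose probe set did not reach the median of all values, 5.11, on at least 3 arrays, the others being Wnt3, Wnt10a, Fzd5 and Lrp5.

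All 3 R-spondins, secreted enhancers of Wnt signalling, were lower in control GFP+ cells. Rspo2, which is required for limb outgrowth in the mouse, averaged 6.27 ± 0.13 in control GFP+ cells and 8.0 ± 0.30 in GFP- cells, a difference of -1.72 (3.31-fold, adjusted p = 0.00130). Rspo3 averaged 6.72 ± 0.15 and 8.15 ± 0.27 (difference -1.43, adjusted p = 0.00490), and Rspo1 4.30 ± 0.20 and 5.41 ± 0.52 (difference -1.10, adjusted p = 0.0171; SD throughout). For each R-spondin every control array was below every GFP- array. The Rspo1 call was lost when control GFP+ replicate 2, GFP- replicate 1 or GFP- replicate 2 was left out, with adjusted p of 0.0603 to 0.0662. A second probe set of Rspo2 gave 0.15 and one of Rspo3 -0.23, neither of them called. Thus their receptor gene Lgr5 and the R-spondin genes were called in opposite directions, while the Lgr4 receptor gene was at -0.41 (adjusted p = 0.156).

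The antagonists gave the most calls, 6 of 7. Wif1 had the largest difference of the 48 genes, at 4.61, 4.81 and 4.44 in control GFP+ cells and 6.69, 6.81 and 7.32 in GFP- cells; the difference was -2.32 (standard error 0.26, 4.99-fold, adjusted p = 8.98e-04). Dkk1 was at 4.68, 4.94 and 5.09 in control GFP+ cells and 6.63, 6.72 and 6.76 in GFP- cells (log2 fold change -1.80, 3.48-fold, adjusted p = 8.61e-05), and both of its probe sets were called. The arrays of the 2 groups were far apart for both genes. In control GFP+ cells, however, both genes were below 5.11, the median of all values, on every array. Frzb differed by -1.33 (adjusted p = 0.0107) and was called on both of its probe sets. Sfrp2 averaged 7.54 ± 0.01 in control GFP+ cells and 8.79 ± 0.39 in GFP- cells (SD; difference -1.25, adjusted p = 0.00356). Sfrp1 was at 9.08, 9.05 and 8.54 in control GFP+ cells and 10.05, 9.81 and 9.49 in GFP- cells (log2 fold change -0.90, adjusted p = 0.0237), a call lost when GFP- replicate 1 (adjusted p = 0.0866) or GFP- replicate 2 (0.0751) was left out. Of the 5 Sfrp1 probe sets 2 were called lower, and the others gave -1.265, -0.347 and 0.024. Dkk3 differed by -0.06 (95% interval -0.46 to 0.35).

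No TCF/LEF factor was called between control GFP+ and GFP- cells, and of the intracellular modulators Ankrd6 alone was. The other 7 modulators differed by -0.40 to 0.56, with Nkd2 the highest (adjusted p = 0.205) and Siah2 at 0.27 (95% interval -0.29 to 0.84). The Frizzled receptors other than Fzd4 were not called. Fzd5, singled out after its values were seen, was at 4.79, 4.74 and 4.56 in control GFP+ cells and 4.87, 5.78 and 7.19 in GFP- cells (log2 fold change -1.25, adjusted p = 0.128), and it was called without GFP- replicate 1 (-1.79, adjusted p = 0.0221). Over those 3 GFP- arrays, several marker lists had means in the same order: ectoderm (5.39, 6.03 and 6.51), blood and macrophages (6.51, 8.37 and 8.83), endothelium (4.92, 5.58 and 5.97) and neural crest and glia (6.13, 6.28 and 6.43). The list of myogenic progenitors (4.829, 4.855 and 5.171) had this order too. The mesenchyme, neural and sclerotome lists did not. The part of any of these cells in the Fzd5 values was not tested.

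Markers of other cells went in both directions in this comparison. Mesenchyme markers were lower in control GFP+ cells than GFP- cells in 13 of 20 cases, with a list mean of 6.58 to 6.73 and 7.82 to 8.10. Ectoderm markers were lower in 4 of 17, with a list mean of 4.57 to 5.18 and 5.39 to 6.51. Neural markers were higher in 6 of 15, with a list mean of 5.57 to 5.65 in control GFP+ cells and 4.32 to 4.41 in GFP- cells, and neural crest and glia markers were higher in 5 and lower in 3 of 9. Sclerotome and cartilage markers were higher in 3 and lower in 5 of 13, and blood and macrophage markers lower in 1 of 12, with 11 of the 12 log2 fold changes below 0. No endothelium marker was called, and all 12 had log2 fold changes above 0. The part of these cells in the Wnt gene differences was not tested.

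**Figure D4:**
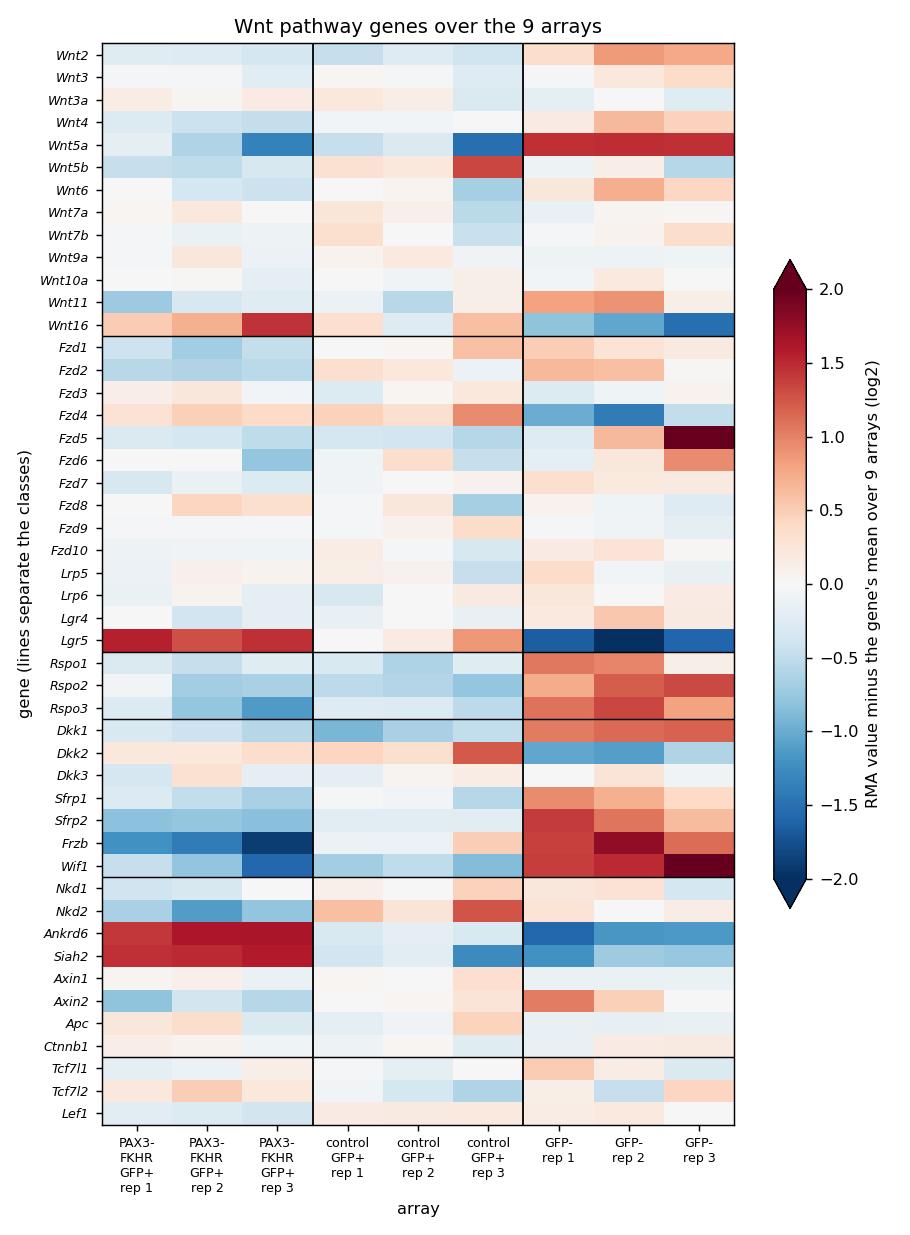
RMA value of each Wnt gene (rows, by class) on each array (columns) minus the gene's mean over the 9 arrays, in log2 units (colour, clipped at 2 and -2). Rspo1 to Rspo3, Dkk1, Sfrp1, Sfrp2, Frzb, Wif1 and Wnt5a are red on the GFP- arrays, Lgr5 and Wnt16 blue there, and Siah2 and Ankrd6 red on the PAX3-FKHR GFP+ arrays.

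PAX3-FKHR GFP+ cells were also set against GFP- cells, a comparison that shares its arrays with the other 2. Here 6 of the 48 genes were higher (12.5%) and 16 lower (33.3%), against 3.9% higher and 2.79% lower of all genes, and the median log2 fold change was -0.26 over the 48 genes and 0.05 over all genes. Lgr5 rose by 3.21 (9.24-fold on 1 of its 2 probe sets, adjusted p = 2.47e-05), Ankrd6 by 2.85 (7.20-fold, adjusted p = 4.52e-06), Siah2 by 2.41 (5.30-fold, adjusted p = 3.71e-04) and Wnt16 by 2.01 (4.02-fold, adjusted p = 0.00246). For Lgr5 and Ankrd6, the log2 fold changes of the 3 comparisons lay side by side as 1.09, 2.12 and 3.21, and as 1.81, 1.03 and 2.85, for PAX3-FKHR GFP+ against control GFP+, control GFP+ against GFP-, and PAX3-FKHR GFP+ against GFP- cells. The other Lgr5 probe set gave 0.41 (adjusted p = 0.0681), and the mean of both 1.81. Fzd4 was higher by 1.34 (adjusted p = 0.00649), on 1 of its 3 probe sets, and Dkk2 by 1.17 (adjusted p = 0.0142). Another Fzd4 probe set gave 0.76 (adjusted p = 0.0679). The Dkk2 call was lost when PAX3-FKHR GFP+ replicate 2, PAX3-FKHR GFP+ replicate 3, GFP- replicate 1 or GFP- replicate 2 was left out (adjusted p of 0.0531 to 0.0623).

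Of the 16 genes lower in PAX3-FKHR GFP+ than in GFP- cells, Frzb had the largest difference, -2.93 (7.60-fold, adjusted p = 7.53e-05), followed by Wif1 at -2.57 (5.95-fold) and Wnt5a at -2.17 (4.51-fold, adjusted p = 0.00374). Sfrp2 was at -1.85, the R-spondins at -1.80 (Rspo3), -1.56 (Rspo2) and -1.05 (Rspo1), Dkk1 at -1.54, Sfrp1 at -1.15 and Wnt2 at -0.94. Those 10 genes were also the 10 that were lower in control GFP+ cells than GFP- cells. The other 6 were Axin2 (-1.08, adjusted p = 0.0210), Wnt11 (-1.03, adjusted p = 0.0306), Fzd2 (-0.99, adjusted p = 0.00623), Nkd2 (-0.99, adjusted p = 0.0335), Fzd1 (-0.85, adjusted p = 0.0187) and Wnt4 (-0.82, adjusted p = 0.00763). Fzd2 was called on 3 of 3 probe sets, Axin2, Fzd1 and Wnt4 each on 1 of 2 and Nkd2 on 1 of 4. The other Axin2 probe set gave 0.054. The Nkd2 call was lost without any 1 of the 6 arrays (adjusted p of 0.0535 to 0.144). Leaving out single arrays also lost the calls of Wnt11 (adjusted p of 0.0590 to 0.114 for 5 of the 6 arrays), Rspo1 (0.0510 to 0.0841 for 5), Fzd1 (0.0547 to 0.0927 for 4) and Axin2 (0.0563 to 0.0767 for 4). For Wnt11 and Rspo1 the exception was GFP- replicate 3. Wnt4, Fzd2 and the other 9 genes kept theirs whichever of the 6 arrays was left out. Mesenchyme markers were lower in PAX3-FKHR GFP+ cells in 13 of 20 cases, ectoderm markers in 3 of 17 (1 higher) and blood and macrophage markers in 2 of 12. Neural markers were higher in 6 of 15, neural crest and glia markers higher in 4 and lower in 2 of 9, and sclerotome and cartilage markers higher in 2 and lower in 5 of 13. None of the 12 endothelium markers was called, and 9 of their log2 fold changes were above 0. The part of these cells in the differences was not tested.

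Of 68 further genes listed for the pathway, from other Wnts and receptors to Dishevelled, Gsk3, casein kinase and planar polarity genes, 67 were measured. None was called with PAX3-FKHR in either direction (0 of 67; limma), where 0.61% of all genes were higher and 0.203% lower, and 8 (11.9%) had an unadjusted p under 0.05, against 8.37% of all genes. The differences had log2 fold changes of -0.87 to 0.79. The highest, named after its values were seen, was Sulf1, an enzyme that trims heparan sulphate and so alters the hold of the matrix on Wnts, at 9.16, 9.24 and 9.09 in PAX3-FKHR GFP+ cells and 8.38, 8.70 and 8.03 in control GFP+ cells (adjusted p = 0.113). Between control GFP+ and GFP- cells 4 of the 67 genes were higher (Sulf1, Celsr3, Peg12 and Tcf15) and 9 lower (Ror1, Ror2, Wls, Sostdc1, Bcl9, Prickle1, Gpc3, Gpc4 and Apcdd1), shares of 5.97% and 13.4% against 2.79% and 1.93% of all genes. They are named for having passed this test. Among them are Ror1 and Ror2, receptors for Wnt5a, at -0.85 (adjusted p = 0.0348) and -0.95 (adjusted p = 0.00661), and Wls, which carries Wnts to the cell surface, at -0.82 (adjusted p = 0.0441). The study places Tcf15 under Wnt signalling, but despite its name Tcf15 is not 1 of the TCF/LEF factors. Its place in the pathway was not examined, and the share of higher genes counts it. Tcf15, Ror2, Sostdc1 and Gpc3 kept their calls whichever array was left out. The other 9 lost theirs without at least 1 array, with adjusted p up to 0.136, and Ror1, Wls and Celsr3 without any 1 of the 6 arrays. New calls appeared as well. Without control GFP+ replicate 3, Sfrp4 (0.553, adjusted p = 0.0490) and Csrp1 (0.996, adjusted p = 0.0459) were called higher. Tle1 was called higher without control GFP+ replicate 2, and Celsr1 without GFP- replicate 1.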

How the data were processed

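The authors deposited log2 expression values that RMA gave for Affymetrix mouse arrays, hybridised after two-cycle amplification. RMA, whose version is not given in the sources used here, corrects background, brings arrays to 1 intensity distribution and summarises probe sets, so a shift common to all genes cannot be seen. Absent calls, on which the study filtered probe sets, were not used here. After 64 array controls were set aside, 45037 probe sets were tested: 34945 with 1 symbol, 932 with several and 9160 with none.

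limma 3.58.1 (R 4.3.3) was fitted to all 9 arrays with an intensity trend. Each log2 fold change is the first named group minus the second. The p-values rest on a spread between pools that was estimated over all 3 groups together and moderated across probe sets. Each group mean rests on 3 pools, whose small number sets the precision of every value.

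The genes and marker lists were chosen with earlier results of these data known. By rule, values on each array are given for genes of the 48 called with PAX3-FKHR and for Wnt16, Dkk1, Dkk2, Wif1, Tcf7l2 and Sfrp1, and means for those called in the other comparisons. Other genes named, and the array values of others such as Axin2, Lgr5 and Wnt5a, were picked after their values were seen.

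Same-numbered arrays of PAX3-FKHR GFP+ and control GFP+ cells deviated together from their group means (r = 0.164, 0.472 and 0.287). The numbers were treated as pairs only in alternative fits with a replicate block. The main fit, which gave the reported p-values, had no such block. The pairing comes from the data, not from the labels. The replicate block changed none of the calls of that comparison.

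Alternatives covered scaling, variance, block, arrays fitted, fold threshold, low values, the study's local pooled error test rebuilt from its description (100 bins, 10 degrees of freedom), probe set choice and leaving out arrays. The fits were tested on simulated data. Gene positions and promoter windows are RefSeq's for GRCm38.p6. Tables and figures were made with pandas 2.3.3 and matplotlib 3.10.9.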

Additional observations from a re-analysis of the deposited data

How the results depend on the processing

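The counts of Wnt genes called stayed within 1.5 times in every alternative run, except for the 2 lower with PAX3-FKHR. That count was 0 when the 6 arrays compared were fitted alone, 1 on the mean over a gene's probe sets, and 0 to 2 over the fits that left out 1 array. Siah2 and Ankrd6 were called in all 20 alternatives. Lgr5 was called higher in 4 of them, with array weights (1.33), by the local pooled error test (1.30), on the mean of its probe sets (0.63) and without control GFP+ replicate 3 (1.35), and Fzd2 was called lower with array weights (-0.83). Leaving out 1 array, the Wif1 difference with PAX3-FKHR ran from -0.494 to 0.057, and its sign turned without PAX3-FKHR GFP+ replicate 3. Between control GFP+ and GFP- cells, Ankrd6 was not called by the local pooled error test or on the mean of its probe sets, nor Sfrp1 by that test or on the 6 arrays alone, nor Rspo1 on the 6 arrays alone. With a replicate block, 2 genes were higher and 2 lower with PAX3-FKHR, on 9 arrays as on 6, and they were the 4 named. The numbers did not pair control GFP+ with GFP- arrays (r from -0.205 to 0.068) or PAX3-FKHR GFP+ with GFP- arrays (-0.288 to 0.155). On 6 arrays the replicate block gave 4 higher and 8 lower in control GFP+ cells than GFP- cells, without Wnt16, Rspo1 and Frzb, and 6 higher and 14 lower in PAX3-FKHR GFP+ than in GFP- cells, without Wnt11 and Axin2. On 9 arrays it took away only Wnt11. Against GFP- cells, some alternatives added lower calls. They added Wnt4, Wnt6, Wnt11 and Fzd5 for control GFP+ cells, and Wnt6, Fzd5, Fzd7 and Lgr4 for PAX3-FKHR GFP+ cells. A log2 fold threshold of 1 left 11 genes lower in PAX3-FKHR GFP+ than in GFP- cells, without Wnt2, Wnt4, Fzd1, Fzd2 and Nkd2, and the mean of probe sets lost Nkd2 (-0.67) and Axin2 (-0.51) there. The cause was not tested. Both scalings moved the median of all probe sets by under 0.1.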

Other observations

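Of 16 genes reported as targets of the β-catenin branch in one tissue or another, 14 were measured, and with PAX3-FKHR 3 were higher and 1 lower than in control GFP+ cells (21.4% and 7.14%, against 0.61% and 0.203% of all genes). Jun, a subunit of the AP-1 transcription factor, was at 9.52, 9.90 and 9.54 in PAX3-FKHR GFP+ cells and 8.65, 8.79 and 8.40 in control GFP+ cells (log2 fold change 1.04, limma adjusted p = 0.0183). Fgf8, a growth factor of the apical ridge, was at 5.60, 5.64 and 5.99 against 4.60, 4.65 and 4.55 (1.14, adjusted p = 0.00712), and it is also 1 of the 17 ectoderm markers. Follistatin (Fst), which binds activins and some BMPs, was at 8.44, 9.03 and 9.35 against 7.69, 7.50 and 7.91 (1.24, adjusted p = 0.0469). Tnfrsf19, a TNF receptor family member, was at 7.13, 6.89 and 7.11 against 8.29, 8.25 and 8.28 (-1.23, adjusted p = 0.00622). Without single arrays of these groups, Jun lost its call in 4 of 6 cases (adjusted p of 0.0564 to 0.102) and Fst in 5 of 6 (0.0681 to 0.195), the 0.0681 being without control GFP+ replicate 3. Fgf8 and Tnfrsf19 kept theirs. In each of these 4 genes the PAX3-FKHR GFP+ and control GFP+ arrays did not overlap.

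Between control GFP+ and GFP- cells, the same list had 4 genes higher and 2 lower (28.6% and 14.3%, against 2.79% and 1.93% of all genes). Sp5, a zinc finger transcription factor, was at 7.15, 6.90 and 8.64 in control GFP+ cells and 4.24, 4.16 and 3.76 in GFP- cells (3.51, adjusted p = 0.00156), with the highest value on control GFP+ replicate 3, without which the difference was 2.97. Myc was at 8.04, 8.21 and 8.44 in control GFP+ cells and 6.19, 6.38 and 6.65 in GFP- cells (1.82, adjusted p = 5.55e-04). Fst (1.91) and Tnfrsf19 (0.80, not called without GFP- replicate 1 or without GFP- replicate 2, adjusted p of 0.0510 and 0.0526) were also higher, and Bmp4 (-1.50) and Fgf8 (-0.79) were lower. The list was taken from general knowledge, and Axin2 and Lef1, which are often read as targets too, are among the 48 genes and were not called in this comparison.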
